A study of Homo sapiens with 24 samples.

Results

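The transcriptional response of LNCaP cells to 24 h of 10 μM enzalutamide was measured by poly(A) RNA-seq against vehicle. LNCaP is a prostate adenocarcinoma cell line that depends on androgen for growth. The comparison drew on 6 of the 24 samples of the series: both samples labelled MDV (enzalutamide) 24h and all 4 labelled Vehicle. The labels number the vehicle samples as replicates 1 to 4, whereas the vehicle table numbered 3 of its 4 columns as replicate 1. These 3 columns were summed into 1 library, which left 2 vehicle libraries against 2 enzalutamide libraries. All of these cells, vehicle included, had been held for 3 days in phenol red-free medium with 5 to 10% charcoal-stripped serum, so the vehicle cells were already short of androgen. No treatment time is given for the vehicle samples. The same 2 vehicle libraries served the enzalutamide 4 h samples and the samples treated with 10 nM DHT, an androgen. A separate experiment of the series, with 25 μM enzalutamide for 24 h in cells transfected with a control siRNA (siControl), had its own vehicle samples.

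Androgens act in prostate cells by switching on genes such as KLK3, which encodes prostate-specific antigen. Enzalutamide is an antiandrogen, a drug of prostate cancer that blocks this signalling. In androgen-dependent prostate cancer cells androgen signalling is also tied to entry into the cell cycle and to lipid synthesis. The integrated stress response is a separate pathway: phosphorylation of the translation factor eIF2α lowers general protein synthesis and favours translation of the transcription factor ATF4, which activates genes for amino acid supply.

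The enzalutamide libraries held 49986088 and 49029465 estimated counts and the vehicle libraries 59985287 and 38894876. The labels call the samples biological replicates but do not say what separated them, so p-values measure only the spread between libraries. That spread was estimated from all 10 libraries of the ligand experiment, DHT and enzalutamide 4 h included. The 10 luminal prostate markers checked, among them KLK3, KLK2 and KRT8, were each above 1 CPM (counts scaled to the total of each library) in all 4 libraries, and their summed level was 4222 to 4276 CPM in vehicle and 4119 to 4124 CPM after enzalutamide. Summed markers of basal epithelium (5.03 to 6.66 against 5.02 to 5.56 CPM), fibroblasts (26.6 to 26.7 against 27.9 to 30.7 CPM) and leukocytes (1.7 to 1.78 against 1.72 to 1.9 CPM) were low in both groups. The endothelial sum was 15.9 to 16.7 CPM in vehicle and 8.71 to 9.2 CPM after enzalutamide, all but a small part of it VWF, the gene of von Willebrand factor (log2 fold change -0.87), which was named here after its value was seen. PECAM1, CDH5, KDR and TEK, the other endothelial markers, were too low to be tested. In RNA from whole cultures, fewer cells of a kind and less RNA per cell cannot be told apart.

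Of 15555 genes tested, 2549 (16.4%) were higher and 2645 (17.0%) were lower after enzalutamide at an adjusted p below 0.05 (edgeR's quasi-likelihood test with Benjamini-Hochberg adjustment). Most of these changes were small. Of the genes that rose, 2207 did so by less than 1.5-fold and 115 by more than 2-fold, and of the genes that fell, 2094 changed by less than 1.5-fold and 283 by more than 2-fold. The median size of a called change was 0.28 on the log2 scale for rises and 0.27 for falls. With signs kept, the median log2 fold change over all genes tested was 0.01. Over all genes tested, 5600 had both enzalutamide libraries above both vehicle libraries and 4933 had both below. Among called genes these were all 2549 higher genes and 2643 of the 2645 lower genes. A lack of overlap, also a condition for the 12 largest changes in each direction, therefore adds little to a call. At a change of more than 2-fold and an unadjusted p below 0.05, 139 genes (0.894%) were higher and 310 (1.99%) lower. Genes past these thresholds differed in level between the directions: 110 of the 139 higher genes averaged under 1 on the log2 CPM scale, against 91 of the 310 lower genes. The count of 139 fell to 84 with DESeq2 and to 60 when at least 1 CPM was required in 2 libraries, and it was 216 without vehicle replicate 1. The adjusted count of higher genes was 1310 to 1770 when any of the 4 libraries was left out, and past a factor of 1.5 without vehicle replicate 2 (1601), enzalutamide replicate 1 (1468) or enzalutamide replicate 2 (1310).

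The column names carry a prefix that divides the columns into sets, called sequencing sets here. The 3 vehicle columns numbered replicate 1 are called runs here. Neither what the prefix stands for nor whether these columns are repeat runs of 1 library is stated. Both enzalutamide 24 h libraries belonged to 1 set, which also held 1 of the 3 runs of vehicle replicate 1 but not vehicle replicate 2. Against that vehicle run alone, with the spread taken from all groups, 1318 genes were higher and 1716 lower, and 1207 and 1648 of these were among the genes called with both vehicle libraries.

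**Figure D1:**
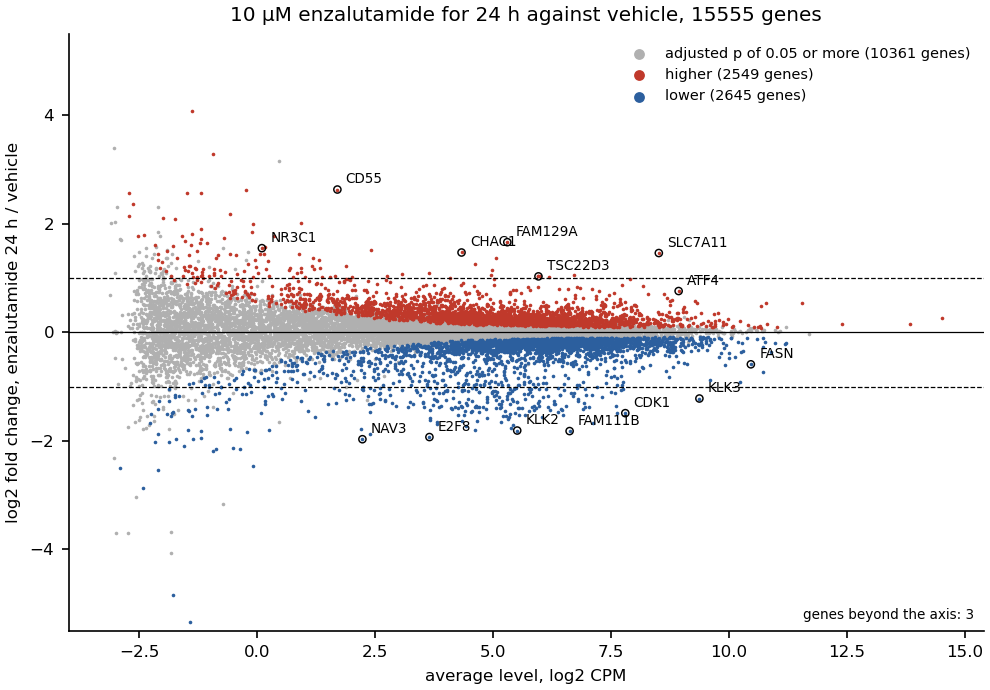
Each point is 1 of 15555 genes, with its average level over the 10 libraries of the fit (log2 CPM) on the horizontal axis and the log2 fold change of 10 μM enzalutamide 24 h over vehicle on the vertical axis; dashed lines mark 2-fold, and 3 genes lie outside the axis. Red points (2549) were higher and blue points (2645) lower at an adjusted p below 0.05, and the strong falls reach genes of much higher level than most of the strong rises.

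More androgen-induced genes fell than rose, with kallikreins among the largest falls. KLK3 stood at 259 and 254 CPM in the vehicle libraries and at 109 and 111 CPM in the enzalutamide libraries. The groups did not overlap, and KLK3 fell to 42.9% of vehicle (log2 fold change -1.22, SE 0.0531, adjusted p = 1.56e-09). KLK2, the neighbouring kallikrein whose sequence is close enough to KLK3 that reads may have been split between them, was at 8.79 and 7.49 CPM in vehicle and 2.56 and 2.14 CPM after enzalutamide (log2 fold change -1.81, SE 0.146). TRPM8, a cold-sensing ion channel of prostate epithelium, was at 1.67 and 1.19 CPM in vehicle and at 0.394 and 0.403 CPM after enzalutamide (log2 fold change -1.87, SE 0.248, adjusted p = 7.33e-05). Both were lower in both enzalutamide libraries than in either vehicle library. TRPM8 averaged below the level required of the largest changes in these 4 libraries and met it through the DHT libraries.

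FKBP5, a co-chaperone of steroid receptors, fell to 71.2% of vehicle, and TMPRSS2, a serine protease gene, fell to 79.1% (57.9 and 61.1 CPM against 75.6 and 74.7 CPM). Over the list of 49 androgen-induced genes, 22 fell, 4 rose and 23 did not pass the test, with a median of -0.12 (0.01 over all genes). The 4 that rose were STEAP2 (a metalloreductase, 1615 and 1443 CPM in vehicle and 2097 and 2155 CPM after enzalutamide), LONRF1, the transcription factor MAF and SAT1, a polyamine enzyme named here although outside the rule for named genes. With DHT at 24 h, tested against the same vehicle libraries, 44 of the 49 genes rose and 3 fell, where 26.9% of all genes rose and 23.2% fell. KLK3 reached 2095 and 2139 CPM under DHT, far above its level in vehicle, and STEAP2 was at 1186 and 1123 CPM, below vehicle.

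Of 15 androgen-repressed genes tested, 3 rose (20.0%, against 16.4% of all genes) and 6 fell (40.0%, against 17.0%), with a median of -0.07. CAMK2N1, an inhibitor of CaM kinase II, rose by 1.29-fold (509 and 499 CPM in vehicle, 650 and 646 CPM after enzalutamide), as did the κ-opioid receptor OPRK1 by 1.27-fold and the metalloproteinase MMP16 by 1.27-fold. The falls included UGT2B28, UGT2B10 and UGT2B17, enzymes that attach glucuronic acid to steroids, at 59.7%, 61.7% and 71.7% of vehicle. These UGT2B genes are near-identical copies, so the split of reads among them is uncertain.

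A stretch of the KLK3 promoter holds 1 match to AGAACA, the hexamer that an androgen response element carries on each side. It is shown in capitals as RefSeq gives it on GRCh38.p14, from 200 to 101 bases before the gene's start, at chr19:50854715-50854814 on the plus strand.
KLK3: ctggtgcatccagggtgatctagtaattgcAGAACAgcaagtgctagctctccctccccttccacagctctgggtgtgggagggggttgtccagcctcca
The match begins 170 bases before the start. On either strand, AGAACA was found in 11.3% of the 62 promoter windows (250 bases before to 50 after a start) of androgen-induced genes and in 10.3% of the 17135 windows of all genes tested, and the exact inverted repeat of the hexamer spaced by 3 bases was found in no window. Genes with several starts have several windows, and windows were found for 11942 of the 15555 genes.

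Genes of mitosis and DNA replication had the lowest medians of the 25 lists examined. All 60 tested genes of DNA replication and the G1/S transition fell, with a median log2 fold change of -1.08 and a range of -1.93 to -0.23, and 37 of them fell by more than 2-fold. All 73 tested genes of mitosis, the spindle and condensin fell as well, with a median of -1.23 and a range of -1.56 to -0.37, and 60 of them by more than 2-fold. Against the single vehicle run of the same sequencing set, 58 and 73 of these genes fell.

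E2F1, the transcription factor that drives S-phase genes, was at 38.2 and 38.4 CPM in vehicle and 14.5 and 12.6 CPM after enzalutamide (35.3% of vehicle, adjusted p = 2.48e-09). Its repressive relative E2F8 was at 11.7 and 11.9 CPM in vehicle and 3.14 and 3.05 CPM after enzalutamide (log2 fold change -1.93, SE 0.0833, adjusted p = 1.49e-09). CDC45, part of the replicative helicase, was at 22.2 and 22.9 CPM in vehicle and 6.29 and 6.66 CPM after enzalutamide. In each case both enzalutamide libraries lay far below both vehicle libraries. CLSPN, an adaptor of the replication checkpoint, fell to 29.4% of vehicle (from 40.2 and 39.3 to 11.9 and 11.5 CPM), MCM10, which helps to load the replication machinery, to 30.7%, and RRM2, a subunit of ribonucleotide reductase, to 31.4% (from 137 and 131 to 42.9 and 40.9 CPM). FAM111B, a protease gene, and PKMYT1, the kinase that holds CDK1 inactive, were also among the 12 largest falls, at 28.4% and 30.1% of vehicle.

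Among mitotic genes, CDK1, the kinase that starts mitosis, was at 234 and 218 CPM in vehicle and 82.1 and 78.6 CPM after enzalutamide (log2 fold change -1.49, SE 0.0571, adjusted p = 5.56e-10). MKI67, which encodes the proliferation marker Ki-67, was at 156 and 144 CPM in vehicle and 64.6 and 67.3 CPM after enzalutamide. BIRC5, the gene of survivin, fell to 45.0% of vehicle (89.8 and 88.5 to 40.5 and 39.8 CPM). No library of 1 group overlapped the other. The largest falls of the mitotic list were in KIFC1, a spindle motor, at 33.9% of vehicle, and in AURKB, a kinase of the chromosomal passenger complex, and NDC80, a kinetochore protein, at 34.8% and 34.9%.

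Genes of homologous recombination and the Fanconi anemia pathway, which repair DNA breaks and crosslinks, followed: 30 of 37 fell and 2 rose, with a median of -0.90. The nuclease EXO1 and the translocase RAD54L fell to 32.1% and 33.5% of vehicle. Rises were seen in the nuclease MUS81 (1.37-fold) and the kinase ATM (1.23-fold, adjusted p = 0.0302, no longer below 0.05 in 6 of the 16 alternative settings). Of 68 replication-dependent histone genes, 49 were tested in this poly(A)-selected RNA. Among the 49, 4 rose (8.16%, against 16.4% of all genes), 4 fell (8.16%, against 17.0%) and the median was 0.06. Transcripts without a poly(A) tail are not captured by this selection, so a fall in such histone RNA could not be seen. Many histone genes are near-identical copies, so values of single ones are uncertain.

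The regulators upstream of these genes moved in both directions. Of 16 cyclin-dependent kinase inhibitors, D-type cyclins, their kinases and retinoblastoma family members tested, 4 rose and 7 fell, with a median of -0.07. CDK2, which partners cyclins E and A, fell to 48.8% of vehicle (60.7 and 61.6 to 30.1 and 29.5 CPM), CDKN2C (p18) to 51.8% and CCND3 (cyclin D3) to 71.4%. CDKN2B, the gene of the inhibitor p15, rose by 1.85-fold (1.93 and 2.11 to 3.73 and 3.71 CPM). CDKN1A, the gene of p21, was at 92.9 and 95.8 CPM in vehicle and 103 and 101 CPM after enzalutamide (log2 fold change 0.12, adjusted p = 0.0237), a call that 10 of the 16 alternative settings removed. CDKN1B, the gene of p27, did not pass the test (log2 fold change 0.09, adjusted p = 0.0733). CCND1 (cyclin D1) was at 93.6% of vehicle and its call was lost in 4 settings, while MYC, a driver of growth and ribosome synthesis, fell to 88.1% (171 and 173 to 151 and 152 CPM, adjusted p = 0.000869).

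Promoters of these lists are shown for the sequence elements they hold, taken from RefSeq (GRCh38.p14) and ending at or before the last base upstream of the start. Capitals mark an E2F element, TTTNGCGC, on either strand in the promoters of E2F1 and MCM6, where 2 overlapping matches on opposite strands form each capital run of MCM6, and the cell cycle homology region, TTTGAA, in those of MKI67, PLK1 and BUB1B. The stretches lie at chr20:33686386-33686485 (minus strand), chr2:135876504-135876603 (minus), chr10:128126424-128126523 (minus), chr16:23678789-23678888 (plus) and chr15:40160969-40161068 (plus), in that order.
E2F1: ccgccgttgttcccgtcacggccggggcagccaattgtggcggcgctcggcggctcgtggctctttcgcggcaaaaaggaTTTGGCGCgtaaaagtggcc
MCM6: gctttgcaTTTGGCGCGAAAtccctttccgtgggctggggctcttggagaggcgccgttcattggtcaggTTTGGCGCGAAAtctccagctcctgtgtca
MKI67: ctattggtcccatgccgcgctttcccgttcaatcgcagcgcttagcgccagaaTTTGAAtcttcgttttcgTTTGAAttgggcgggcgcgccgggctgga
PLK1: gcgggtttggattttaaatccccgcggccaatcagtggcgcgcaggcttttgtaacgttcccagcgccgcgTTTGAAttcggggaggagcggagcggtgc
BUB1B: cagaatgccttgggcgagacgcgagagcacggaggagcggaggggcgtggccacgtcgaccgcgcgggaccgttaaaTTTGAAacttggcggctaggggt
MCM6 encodes a subunit of the replicative helicase, PLK1 a mitotic kinase and BUB1B a spindle checkpoint kinase; these 3 were chosen after their values were seen. MCM6 was at 110 and 107 CPM in vehicle and 56.4 and 53.4 CPM after enzalutamide. PLK1 was at 68 CPM in both vehicle libraries and at 27 and 25.9 CPM after enzalutamide, and BUB1B went from 97.8 and 92.8 to 39.7 and 34.4 CPM.

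The E2F element was found in 29.4% of the 68 promoter windows of the replication list, in 6.67% of the 75 windows of the mitotic list and in 2.64% of the windows of all genes tested. TTTGAA showed the reverse split: 62.7% of mitotic windows held it, 4.41% of replication windows and 10.5% of all. Of the matches in mitotic windows, 42 of 61 began within 50 bases of the start, against 534 of 2023 in all windows. The CCAAT box was present in 72.0% of mitotic and 48.5% of replication windows and in 34.9% of all. These matches are descriptions of the letters and not of binding.

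**Figure D2:**
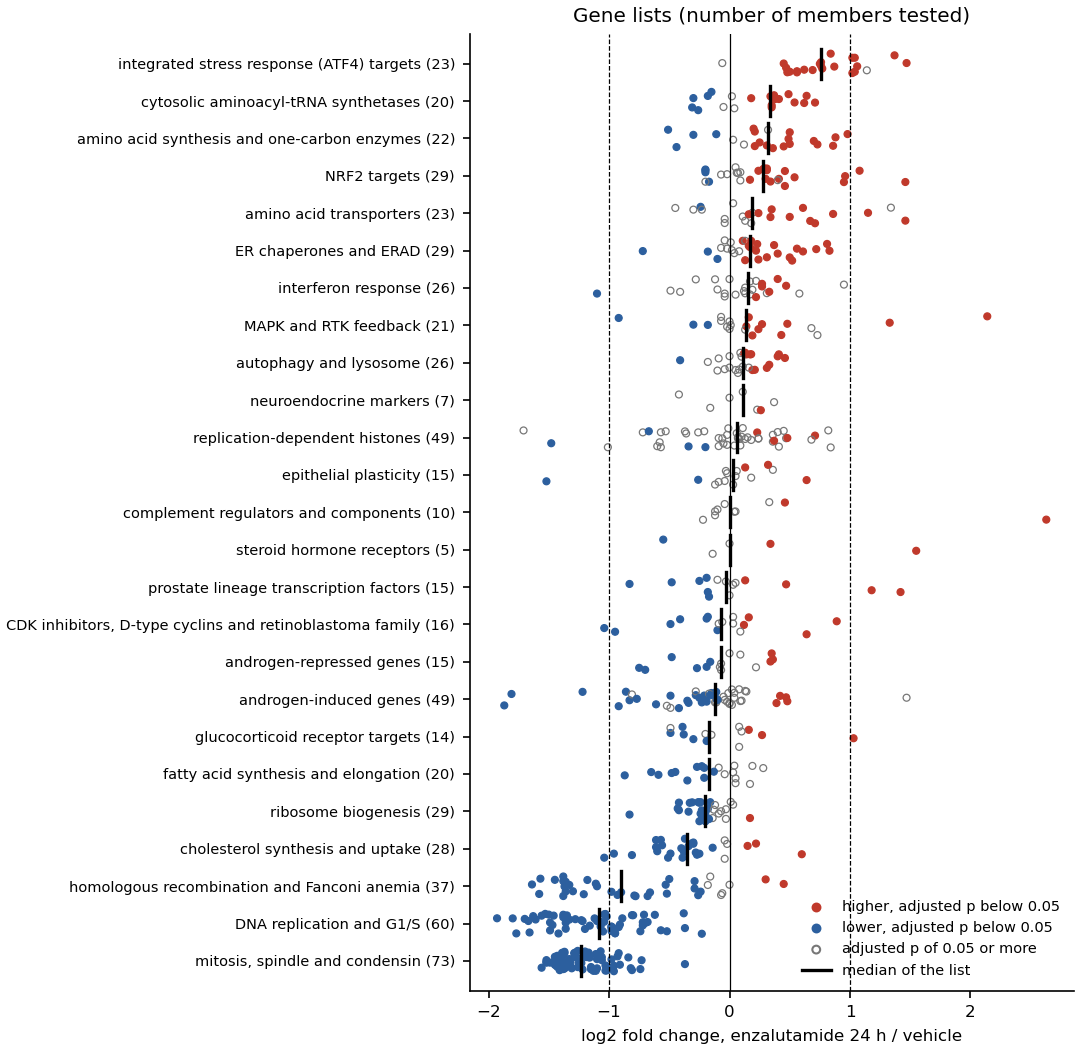
Each point is 1 tested gene of the list named at the left (the number of genes in parentheses), placed by its log2 fold change of enzalutamide 24 h over vehicle; filled points passed an adjusted p of 0.05, the black bar is the median of the list and dashed lines mark 2-fold. The medians run from 0.76 for the integrated stress response to -1.23 for mitosis, and no gene of the replication or mitotic list lies at or above 0.

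The integrated stress response moved the other way. Of 23 targets of ATF4 and related genes, 21 rose, none fell and 7 rose by more than 2-fold, with a median of 0.76. The list was chosen with earlier results of these data known, so these counts are descriptive. All 7 are also on the study's own list of genes raised by 10 μM enzalutamide, drawn from the same ligand experiment. ATF4 itself was at 410 and 404 CPM in vehicle and 682 and 695 CPM after enzalutamide (1.69-fold, log2 SE 0.0306, adjusted p = 8.45e-10). DDIT3, which encodes the stress factor CHOP, was at 22.1 and 21.0 CPM in vehicle and 54.2 and 57.4 CPM after enzalutamide (2.58-fold, adjusted p = 1e-09). CHAC1, an enzyme that degrades glutathione, was at 12.9 and 12.6 CPM in vehicle and 35.8 and 34.8 CPM after enzalutamide (2.77-fold, adjusted p = 7.97e-09). TRIB3, a pseudokinase induced by ATF4 and CHOP, went from 74.9 and 76.6 to 156 and 160 CPM. For each of these genes both enzalutamide libraries lay above both vehicle libraries. The members that did not pass were NOXRED1 (log2 fold change -0.06) and the hormone gene FGF21, which was near the limit of detection with 8 and 5 counts in vehicle and 10 and 19 after enzalutamide (log2 fold change 1.14, adjusted p = 0.117); both were named after their values were seen. VEGFA, which encodes an angiogenic growth factor, rose by 1.62-fold (88.3 and 82.8 to 138 and 139 CPM).

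Genes of amino acid supply rose with them. Of 22 genes of amino acid synthesis and one-carbon metabolism, 15 rose and 4 fell, with a median of 0.32. PCK2, the mitochondrial phosphoenolpyruvate carboxykinase, rose by 1.97-fold (199 CPM in both vehicle libraries, 387 and 395 CPM after enzalutamide), the cysteine-forming enzyme CTH by 1.84-fold and asparagine synthetase, ASNS, by 1.82-fold (256 and 237 to 443 and 454 CPM). ASNSP1, a pseudogene of ASNS, was among the 12 largest rises at 2.35-fold, and reads shared with ASNS could be counted there. The falls included PYCR3, a proline-forming enzyme, at 70.4% of vehicle and the cytosolic folate enzymes MTHFD1 and SHMT1 at 73.6% and 81.0%.

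Among 23 amino acid transporters 11 rose and 1 fell, with a median of 0.19. SLC7A11, the cystine importer, was at 241 and 206 CPM in vehicle and 591 and 642 CPM after enzalutamide (2.75-fold, log2 SE 0.0959, adjusted p = 8.21e-08). The glycine transporter SLC6A9 rose by 2.21-fold and the serine and alanine transporter SLC1A4 by 1.82-fold, and the taurine transporter SLC6A6 fell to 84.6%. Of the 20 cytosolic aminoacyl-tRNA synthetases, which charge tRNAs with amino acids, 12 rose and 5 fell, with a median of 0.34. The enzymes for serine (SARS), glycine (GARS) and cysteine (CARS) rose by 1.64-, 1.56- and 1.54-fold. Both subunits of the phenylalanine enzyme, FARSA and FARSB, and the valine enzyme VARS fell to 80.8%, 81.1% and 83.4%, so the synthetases did not move as 1 block.

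In the promoters of 3 genes that rose, the composite C/EBP-ATF element, TGATGNAA, which ATF4 can bind together with C/EBP factors, is marked in capitals, read on either strand (RefSeq, GRCh38.p14). The stretches lie at chr15:40953221-40953320 (plus strand), chr7:97872409-97872508 (minus) and chr16:56931942-56932041 (plus).
CHAC1: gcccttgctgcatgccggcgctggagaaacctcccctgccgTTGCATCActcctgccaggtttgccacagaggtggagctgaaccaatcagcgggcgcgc
ASNS: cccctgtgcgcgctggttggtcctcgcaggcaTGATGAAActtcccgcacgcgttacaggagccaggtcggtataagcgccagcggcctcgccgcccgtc
HERPUD1: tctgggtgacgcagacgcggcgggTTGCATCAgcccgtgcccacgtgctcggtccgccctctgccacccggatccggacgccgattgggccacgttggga
The element begins 209, 68 and 176 bases before the start of the gene in CHAC1, ASNS and HERPUD1. It was found in 17.1% of the 35 windows of the integrated stress response list, 23.8% of the 21 windows of amino acid synthesis, 15.8% of the 38 windows of the transporters and 37.5% of the 16 windows of the synthetases, against 2.05% of all windows and 3.09% of the windows of genes that rose.

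**Figure D3:**
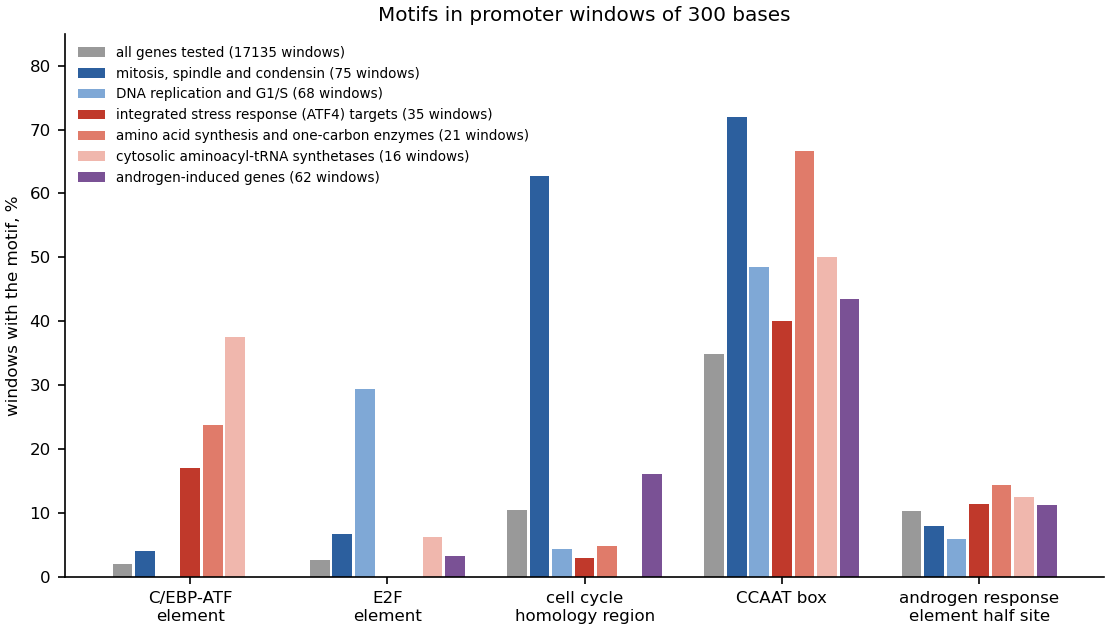
Bars give the percent of 300-base promoter windows that held each motif on either strand, for all genes tested (17135 windows) and for 6 of the gene lists. The C/EBP-ATF element was most frequent in the synthetase windows (37.5%), the E2F element in replication windows (29.4%) and the cell cycle homology region in mitotic windows (62.7%).

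Endoplasmic reticulum genes rose more mildly. Of 29 chaperones and degradation factors, 18 rose and 3 fell, with a median of 0.17. The sensor kinase ERN1 (IRE1) rose by 1.78-fold, HERPUD1, which takes part in the disposal of misfolded proteins, by 1.76-fold (89.2 and 87.9 to 153 and 158 CPM) and the co-chaperone DNAJB9 by 1.64-fold. HSPA5, the gene of the chaperone BiP, rose by 1.17-fold (871 and 854 to 1003 and 1012 CPM), and the chaperone CALR was at 93.4% of vehicle, a call lost in 5 of the 16 alternative settings. NRF2 controls defence against oxidants, and 16 of its 29 tested targets rose and 4 fell, with a median of 0.28. NFE2L2, which encodes NRF2, did not pass the test (66.8 and 68.2 CPM in vehicle, 69.3 and 70.1 CPM after enzalutamide, adjusted p = 0.434). HMOX1, which degrades heme, rose by 1.94-fold (5.7 and 5.97 to 10.8 and 11.8 CPM). Falls in this list were seen in GSR, TKT and PRDX1, each at about 87% of vehicle (87.1%, 87.2% and 87.2%). Of 26 autophagy and lysosome genes 12 rose and 1 fell, with a median of 0.11, among them SQSTM1, the receptor p62, which rose by 1.38-fold.

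Lipid synthesis genes fell. Of 28 genes of cholesterol synthesis and uptake, 22 fell and 3 rose, with a median of -0.35. INSIG1, a sterol-regulated inhibitor of the pathway, was at 97.0 and 122 CPM in vehicle and 54.1 and 52.0 CPM after enzalutamide (log2 fold change -1.04, SE 0.0836, adjusted p = 6.39e-07). The sterol isomerase EBP fell to 57.2% of vehicle. The 3 rises were the sterol exporter ABCG1 (1.51-fold) and the late enzymes TM7SF2 (1.17-fold) and SC5D (1.11-fold), the last of which lost its call in 7 of the 16 alternative settings. For fatty acid synthesis and elongation, 11 of 20 genes fell and none rose, with a median of -0.17. FASN, fatty acid synthase, was at 1210 and 1262 CPM in vehicle and 820 and 822 CPM after enzalutamide (66.4% of vehicle, adjusted p = 2.12e-07), and the desaturases FADS2 and FADS1 fell to 54.7% and 63.8%. With DHT at 24 h, 22 of the 28 cholesterol genes and 16 of the 20 fatty acid genes rose, against the same vehicle libraries. Over all genes, 26.9% rose with DHT at that time. FASN stood at 2440 and 2708 CPM there.

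Of 5 steroid receptor genes tested, 2 rose (40.0%, against 16.4% of all genes) and 1 fell (20.0%, against 17.0%). NR3C1, which encodes the glucocorticoid receptor, was scarce in vehicle at 0.479 and 0.609 CPM and stood at 1.46 and 1.67 CPM after enzalutamide (2.93-fold, log2 SE 0.234, adjusted p = 0.000229). Against the single vehicle run of the same sequencing set its log2 fold change was 0.94 with an adjusted p of 0.0828. The mineralocorticoid receptor NR3C2 rose by 1.26-fold, a call lost in 4 of the 16 alternative settings. The progesterone receptor PGR fell to 68.2%, a call lost in 6 of the 16, DESeq2 among them. Of 14 targets of the glucocorticoid receptor 3 rose (21.4%, against 16.4% of all genes) and 5 fell (35.7%, against 17.0%), with a median of -0.17. TSC22D3, which encodes the anti-inflammatory protein GILZ, rose by 2.04-fold (50.8 and 46.7 to 98.7 and 101 CPM, adjusted p = 4.24e-09). The falls included FKBP5, the zinc finger factor ZBTB16, CRISPLD2 and DUSP1.

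Of 13 genes collected from those the study describes singly, 12 could be tested, 6 rose and 5 fell. CEMIP, a hyaluronan-degrading protein, rose by 3.51-fold from a low level (0.198 and 0.203 to 0.631 and 0.787 CPM, adjusted p = 0.00247). LAMP3, a lysosomal membrane protein, was too low to be tested. CPEB4, a regulator of mRNA translation, did not pass at 98.7 and 90.5 CPM in vehicle and 105 and 108 CPM after enzalutamide (adjusted p = 0.0828). The pioneer factor GATA2 was lower at 87.9% of vehicle (223 and 237 to 201 and 203 CPM, adjusted p = 0.00892). That call was lost in 2 of the 16 alternative settings. The pioneer factor FOXA1 rose by 1.09-fold, a call lost in 1 of the 16, without enzalutamide replicate 2.

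The largest rise among genes with an average of at least 1 on the log2 CPM scale was CD55, which encodes a brake on complement at the cell surface. It was at 1.47 and 1.5 CPM in vehicle and 9.29 and 9.06 CPM after enzalutamide (6.18-fold, log2 fold change 2.63, SE 0.124, adjusted p = 3.03e-09). Of the other complement genes tested, CFD, complement factor D, rose (1.38-fold, lost in 9 of the 16 alternative settings) and none fell, and the list of 10 had a median of -0.00. FAM129A, a stress-responsive gene, rose by 3.16-fold (24.3 and 22.9 to 73.1 and 76.5 CPM, adjusted p = 2.03e-10). COL16A1, a collagen gene, rose by 2.88-fold, the transcription factor BCL11B by 2.58-fold, the dynein gene DNAH10 by 2.52-fold and the calpain protease CAPN5 by 2.4-fold (17.6 and 19.1 to 42.9 and 44.8 CPM). DIO3, which inactivates thyroid hormone, rose by 2.34-fold. NPIPA7, a member of a family of near-identical copies, completed the 12 largest rises (2.26-fold, adjusted p = 0.0194), and 6 alternative settings removed its call.

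Among the 12 largest falls outside the cell cycle, NAV3, a microtubule-associated protein, led (5.7 and 4.72 to 1.18 and 1.49 CPM, log2 fold change -1.97, SE 0.159). ST6GALNAC1, a sialyltransferase, fell to 29.1% of vehicle (0.776 and 0.736 to 0.256 and 0.182 CPM), and TM4SF1, a tetraspanin-like membrane protein, to 30.9% (7.81 and 7.95 to 2.56 and 2.3 CPM). ST6GALNAC1 was under 1 CPM in all 4 libraries and met the level required of the largest changes only through the DHT libraries (18.7 and 18.9 CPM at 24 h). TM4SF1 was at 45.2 and 42.8 CPM with DHT at 24 h and NAV3 at 6.92 and 6.3 CPM.

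**Figure D4:**
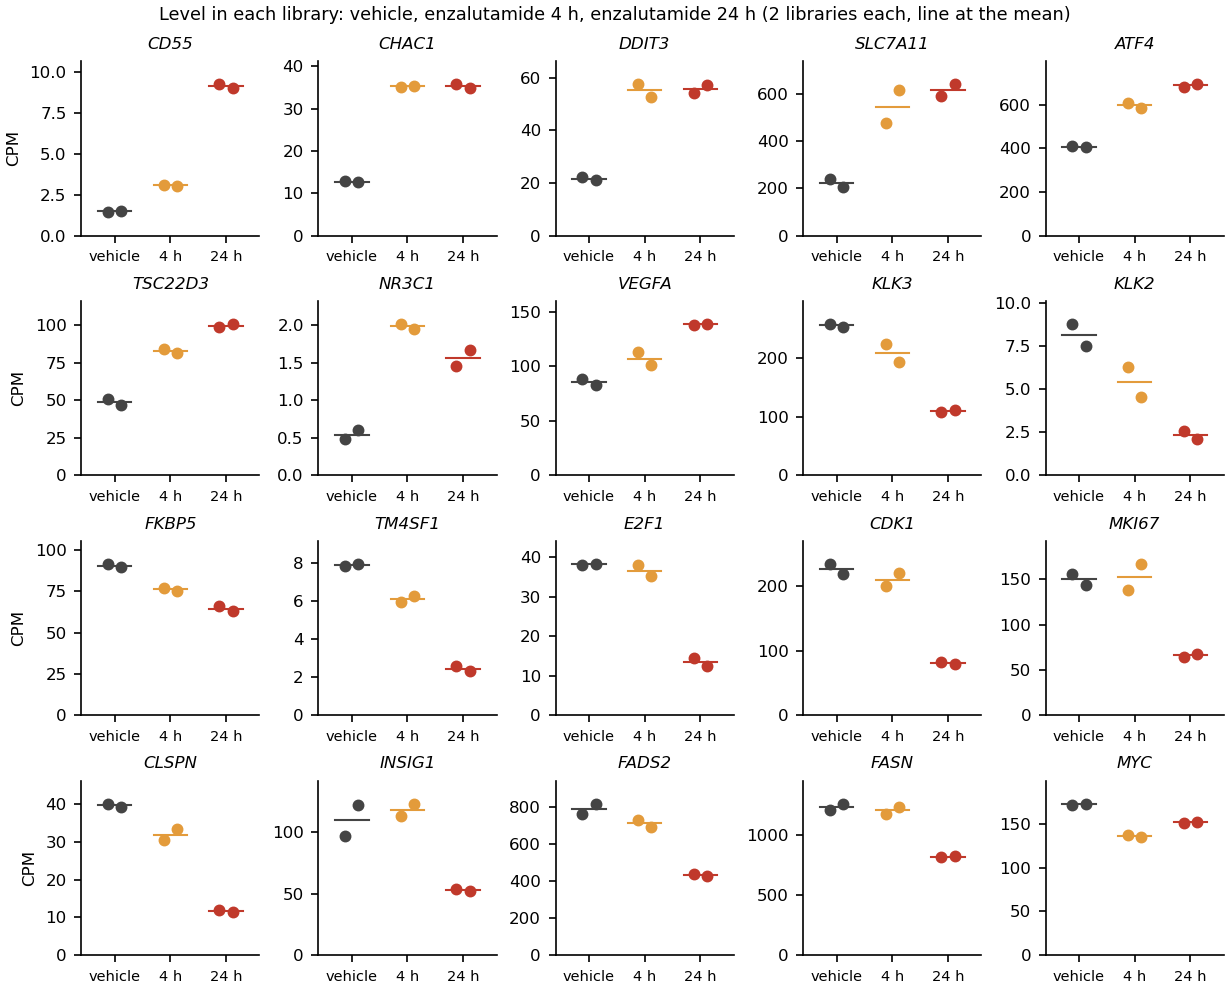
Normalised levels (CPM, axes from 0) of 20 genes in the 2 vehicle, 2 enzalutamide 4 h and 2 enzalutamide 24 h libraries, each point 1 library and each line the mean. CHAC1 and DDIT3 stood at their 24 h level by 4 h, whereas E2F1, CDK1 and MKI67 at 4 h were near vehicle and low at 24 h.

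Lineage and signalling genes moved in both directions. Of 15 prostate lineage transcription factors 4 rose (26.7%, against 16.4% of all genes) and 6 fell (40.0%, against 17.0%), with a median of -0.03. The rises included the ETS factor ETV5 (2.67-fold, from 0.297 and 0.432 to 0.927 and 0.968 CPM), the orphan nuclear receptor RORA (2.27-fold) and SOX9 (1.38-fold). Of 7 neuroendocrine markers tested 1 rose (14.3%, near the share of all genes), the transcription factor ONECUT2 (1.2-fold, adjusted p = 0.0469). The ONECUT2 call was removed by 9 of the 16 alternative settings, DESeq2 among them. Another 11 markers, CHGA and CHGB among them, were too low to test. For epithelial plasticity, 3 of 15 genes rose (20.0%) and 2 fell (13.3%), near the shares of all genes. The rises were in epithelial genes: the splicing factor ESRP1 (1.56-fold), the junction protein CLDN7 (1.25-fold) and E-cadherin, CDH1 (1.1-fold). The falls, in the junction protein CLDN1 and the splicing factor ESRP2, were in epithelial genes too. The calls of CDH1 and CLDN1 were lost in 3 and 4 of the 16 alternative settings. Of 26 interferon-response genes 6 rose (23.1%, against 16.4% of all genes) and 1 fell (3.85%, against 17.0%), with a median of 0.15. The fall in OAS3, an antiviral sensor, to 46.8% of vehicle was larger than any of the rises. Genes of ribosome biogenesis fell, 19 of 29 with 1 rise and a median of -0.20, led by the nucleolar protein TCOF1 at 56.2% of vehicle.

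Of 21 feedback regulators and receptors of the MAPK pathway 9 rose (42.9%, against 16.4% of all genes). A further 3 fell (14.3%, against 17.0%), and the median was 0.14. Against the single vehicle run of the same sequencing set only 1 rose and 1 fell. The growth factor receptor FGFR2 rose by 2.52-fold from a low level (0.578 and 0.66 to 1.54 and 1.55 CPM), the inhibitor SPRY4 was near the limit of detection in every library (at most 0.237 CPM), and PHLDA1, a target of this pathway, fell to 52.7%.

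The contrast of 24 h with 4 h compares the enzalutamide libraries directly, and the shared vehicle libraries cancel out of it. No vehicle sample has a stated time, so the effect of the drug and time in culture cannot be told apart here. Both 4 h libraries came from another sequencing set, which also held a run of vehicle replicate 1. In all, 1826 genes (11.7%) were higher and 2003 (12.9%) lower at 24 h. Of the genes called lower at 24 h against vehicle, 1498 of 2645 (56.6%) were also lower at 24 h than at 4 h, and of those called higher, 1149 of 2549 (45.1%) were higher at 24 h than at 4 h. Leaving out 1 enzalutamide 24 h library brought the higher count to 837 or 897 and the lower count to 1321 or 1242. When each time was taken relative to the vehicle run of its own sequencing set, which leaves 1 vehicle run a time, 188 genes were higher and 579 lower, and 173 and 575 of these were among the genes called in the direct contrast.

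Cell cycle genes belonged to the late change. All 73 mitotic genes and 59 of the 60 replication genes were lower at 24 h than at 4 h. CDK1 was at 200 and 219 CPM at 4 h, close to its 234 and 218 CPM in vehicle, and the difference between 24 h and 4 h was -1.38 on the log2 scale (adjusted p = 1.5e-09). The corresponding difference was -1.44 for E2F1, -1.21 for MKI67 and -1.04 for BIRC5. Relative to the vehicle runs of their own sets, all 73 mitotic and 56 of the 60 replication genes were lower at 24 h, and the difference for CDK1 was -1.38 (adjusted p = 7.14e-06). Against vehicle, 17 of the 60 replication genes and 6 of the 73 mitotic genes were already lower at 4 h, where 6.68% of all genes were.

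Stress-response targets had mostly risen by 4 h: 18 of the 23 were higher than vehicle at that time, where 6.94% of all genes were. Between 24 h and 4 h the differences for CHAC1 (0.00, adjusted p = 0.99), DDIT3 (0.01, adjusted p = 0.869) and SLC7A11 (0.17, adjusted p = 0.197) did not pass the test. Of the 23 targets, 7 were higher and 6 lower at 24 h than at 4 h. ATF4 was higher by 0.21. The lower ones included the transcription factor ATF3 (-0.39) and the stress-induced SESN2 (-0.26), both named after their values were seen. Relative to the vehicle runs of their own sets, 2 targets passed the test, both higher at 24 h, and ATF4 was not among them (0.20, adjusted p = 0.0573). Outside the list, ASNS was higher at 24 h by 0.43, CD55 by 1.57 and FAM129A by 1.00, and in the set-matched contrast the call of CD55 was lost (1.27, adjusted p = 0.0502).

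Androgen-responsive genes differed in pace. KLK3 was at 224 and 194 CPM at 4 h and fell by a further 0.93 by 24 h, and KLK2 by a further 1.19. FKBP5 was at 77 and 75.3 CPM at 4 h, between its levels in vehicle and at 24 h (difference -0.24, adjusted p = 0.000602; set-matched -0.21, adjusted p = 0.136). The set-matched differences of KLK3 and KLK2 were -0.94 and -1.28, and both passed. Of 28 cholesterol genes, 20 were lower at 24 h than at 4 h, and 11 were in the set-matched contrast, with a difference of -1.15 for INSIG1. A few genes went the other way. CCND1 was at 262 and 263 CPM at 4 h, well below vehicle, and was higher again at 24 h by 0.41, and MYC and GATA2 were likewise higher at 24 h than at 4 h by 0.15 and 0.21. CDKN1A was lower at 24 h than at 4 h by 0.18. Of these, only CCND1 kept its call in the set-matched contrast (0.39, adjusted p = 0.000617).

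The siControl experiment at 25 μM shares no library with the 10 μM comparison and was deposited as RPKM, so its differences are on the log2(RPKM + 0.1) scale and tested with limma. The spread for that test was also taken from samples of the same experiment transfected with a GATA2 siRNA. The siControl experiment differs in dose, in transfection before treatment and in its processing, and the sizes of effects are set side by side only. Of 2636 genes lower at 10 μM and tested in both experiments, 2042 (77.5%) were also lower at 25 μM, where 30.1% of all 15404 shared genes were, and 49 (1.86%) were higher. Of 2539 genes higher at 10 μM, 1524 (60.0%) were also higher, where 22.1% of all shared genes were, and 114 (4.49%) were lower. For the genes past 2-fold at 10 μM, 253 of 306 lower genes (82.7%) and 72 of 132 higher genes (54.5%) were called in the same direction at 25 μM.

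Most genes of the cell cycle lists and of the integrated stress response were called at both doses. All 60 replication genes and 72 of 73 mitotic genes were lower at 25 μM, with medians of -1.31 and -0.80 (-0.03 over all shared genes), and 22 of 23 stress-response targets were higher, with a median of 1.18. CHAC1 differed by 2.87 on the log2 scale at 25 μM and by 1.47 at 10 μM, DDIT3 by 2.25 and 1.37, and CD55 by 1.73 and 2.63. The endoplasmic reticulum list had 11 of 29 genes higher and 12 lower at 25 μM (median -0.03), against 18 and 3 at 10 μM. The amino acid transporters had 10 of 23 higher and 7 lower (median -0.02), against 11 and 1 at 10 μM. Of all shared genes, 22.1% were higher and 30.1% lower at 25 μM. The cholesterol list showed fewer calls, with 14 lower and 3 higher of 28 and a median of -0.13. INSIG1 fell by 0.21 at 25 μM. NR3C1 rose by 0.27 and CEMIP by 0.43, smaller values than at 10 μM on a scale whose pseudocount compresses scarce genes. GATA2 was higher at 25 μM (log2 difference 0.65, adjusted p = 1.17e-05), opposite to its direction at 10 μM, and FOXA1 did not pass (0.00, adjusted p = 0.96).

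**Figure D5:**
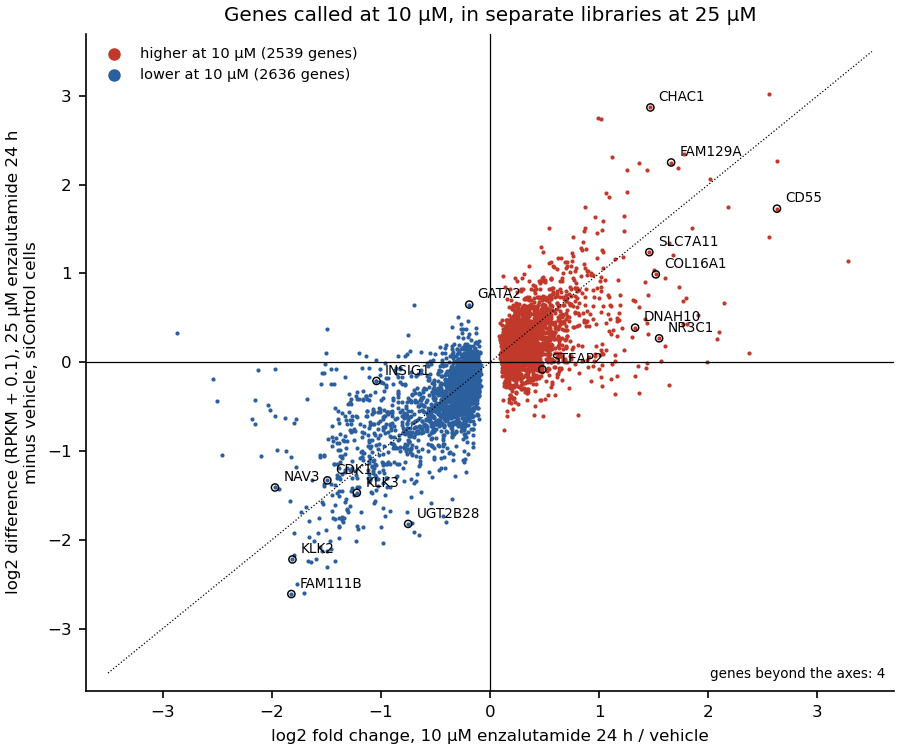
Each point is a gene called at 10 μM (2539 higher in red, 2636 lower in blue) and tested in both experiments, with its log2 fold change at 10 μM on the horizontal axis and its log2(RPKM + 0.1) difference at 25 μM in siControl cells on the vertical axis; the dotted line marks equal values and 4 genes lie outside the axes. CHAC1 and FAM111B lie beyond the line, CD55 short of it, and GATA2 sits in the quadrant of opposite sign.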

How the data were processed

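For the ligand experiment the authors deposited estimated counts per gene, without normalisation. Many are fractional, and all were rounded before testing. The submitters' processing notes name TopHat2 2.0, Partek and build hg19; the annotation is not given in the sources used here, and the library kit keeps the strand. For the siRNA experiment the authors deposited RPKM values. Doses and the direction of the comparisons come from the study's methods and labels. Columns of per-sample values left unused numbered 0. Genes named in the vehicle file numbered 20260 and in the other ligand files 21962, of which 19995 were shared, and absent genes were given a count of 0.

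The 3 vehicle columns that share replicate number 1 differed less from each other (mean chi-square per gene 1.53 to 1.56) than from replicate 2 (3.56 to 3.74) and were summed. Counts were fitted with edgeR 4.0.16 in R 4.3.3 (quasi-likelihood test, TMM factors, filterByExpr, two-sided, Benjamini-Hochberg over 15555 genes) in 1 model of 5 conditions with 2 libraries each. CPM values use TMM-scaled library sizes, so they compare 1 gene between libraries and not genes with each other. RPKM values were tested with limma 3.58.1 (trend) on log2(RPKM + 0.1) over 4 conditions with 3 samples each, for genes above 0 in at least 3 libraries. The conditions were siControl cells and cells transfected with a GATA2 siRNA, each with vehicle and with enzalutamide, and all of them entered the estimate of the spread. Both fits were also run on simulated data drawn with the means and spreads of these data. Same-numbered libraries did not deviate together (correlation 0.0472 for vehicle and enzalutamide 24 h, -0.103 to 0.0633 over all pairs of conditions).

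The members of the comparison and all gene lists were chosen with earlier results of these data known. Genes named are the 12 largest rises and falls (adjusted p below 0.05, average log2 CPM of at least 1, no overlap), genes the study describes singly, up to 3 members per list and direction among those past the test, and a set of defining members; others are said to be outside this rule, and some genes that meet it are not reported here. Alternatives were DESeq2 1.42.0, other scaling, other filters on low counts, single vehicle runs, a replicate block, each library left out and other pseudocounts. Promoter windows are from RefSeq (GRCh38.p14), matched by symbol; no coordinate was moved between builds. Figures were drawn with matplotlib 3.10.9.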

Additional observations from a re-analysis of the deposited data

Results flagged for a closer look

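By the direct contrast of enzalutamide at 24 h with 4 h, 1826 genes were higher and 2003 lower at 24 h (edgeR, adjusted p below 0.05). No vehicle sample has a stated time, so the effect of the drug and time in culture cannot be told apart. The times also belong to different sequencing sets. Relative to the vehicle run of its own set, 188 genes were higher and 579 lower. Log2 differences between 24 h and 4 h that passed the direct contrast were negative for E2F1 (-1.44), CLSPN (-1.46), CDK1 (-1.38), MKI67 (-1.21), BIRC5 (-1.04), KLK2 (-1.19), KLK3 (-0.93) and TMPRSS2 (-0.25). They were also negative for the lipid genes INSIG1 (-1.15) and FASN (-0.56), and for CDKN1A (-0.18). Positive differences were found for CD55 (1.57), FAM129A (1.00), ASNS (0.43), VEGFA (0.37), TSC22D3 (0.26) and ATF4 (0.21), all of which lay above vehicle at both times. CCND1 (0.41), GATA2 (0.21) and MYC (0.15) also had positive differences, and these 3 lay below vehicle at both times. The differences of TMPRSS2, CDKN1A, CD55, VEGFA, TSC22D3, ATF4, GATA2 and MYC did not pass in the set-matched contrast, which uses 1 vehicle run a time, and those of the other 12 genes did.

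Between the doses, 114 genes were called higher at 10 μM and lower at 25 μM in siControl cells, and 49 were called lower at 10 μM and higher at 25 μM. GATA2 was among the latter, with a log2 difference of 0.65 at 25 μM. The experiments were processed and tested separately, and the difference between them was not tested for these genes.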

How the results depend on the processing

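Some counts moved past 1.5 times. The adjusted count of higher genes was 1318 and of lower genes 1716 against the vehicle run of the same sequencing set (chosen after seeing the data), and 1310 to 1770 and 1788 to 2253 with 1 library left out. The 2-fold count of higher genes was 84 with DESeq2, 60 with at least 1 CPM in 2 libraries and 128 to 216 with 1 library left out, and that of lower genes 306 to 355. The 24 h against 4 h counts were 837 to 1819 higher and 1242 to 2116 lower with 1 library left out, and 188 and 579 when each time was taken relative to the vehicle run of its own set (chosen after seeing the data); the cause was not tested beyond the smaller number of libraries. Counts at 25 μM and their overlap with 10 μM stayed within 1.5 times. With the replicate block, which rests on a number only since the pairing check found no shared deviation, 2367 genes were higher and 2461 lower, and 2335 and 2452 of these were called without it. Over 144 named genes and 16 settings, 2108 values kept direction and call, 182 lost their call, 3 gained one and 1 changed sign, that of NFE2L2 (-0.01 with the vehicle run of the second set), which did not pass the test. Changes of scarce genes rest on few counts, and 2 libraries a group limit every call.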
